A study of Drosophila melanogaster with 12 samples.

Results

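The transcription factor genes pros, salm, salr and klu were followed across 12 arrays of eye imaginal discs from wandering larvae of the last instar of Drosophila melanogaster. Members were chosen by symbol: a probe set counted when the platform annotation mapped it to 1 of these 4 genes and to no other. This gave 5 probe sets for 4 genes, out of 13647 probe sets with 1 gene, which cover 11983 genes. pros, salm and salr had 1 probe set each and klu had 2. The rule itself uses names and no measured values. All 5 probe sets passed the filter on low values described here: a value above the 40th percentile of its array on at least 3 of the 12 arrays.

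All groups hold 3 arrays and all are written with w in the genotype. The Runt group is labelled w; ro-Gal4/UAS-Run, and the Runt G163R group w; ro-Gal4/UAS-Run[G163R], in which the transgene encodes Runt with an amino acid change. The driver is named for rough (ro), so both forms of Runt were made where that driver is active. Discs without either transgene were not part of the comparison. The sens mutant group is labelled w; sensDF2RES/sensDF2RES; sensE1/sensE1. Its control is w; sensDF2RES/+; sensE1/+, so the control discs carry 1 copy of both elements. The labels state that antennae were removed. Whether the replicates are separate crosses or pools of animals is not stated, so the p-values cover only the spread among these arrays, and that spread may be technical. Each array averages all cells of the dissected tissue, and fewer cells of a type cannot be told apart from less RNA per cell.

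In the fly eye, each unit contains a pair of inner photoreceptors, R7 and R8, which detect colour, and a ring of outer photoreceptors. R8 forms first under the proneural factor Atonal and needs the zinc-finger factor Senseless, and R7 is recruited when the R8 ligand Boss activates the receptor Sevenless. Prospero, encoded by pros, is an atypical homeodomain protein found in R7 and in cone cells. It represses R8 rhodopsin genes in R7, and in neuroblast lineages it is passed to the daughter cell that will differentiate. salm (spalt major) and salr (spalt-related) are paralogous zinc-finger genes. Their products act in R7 and R8, in the R3 and R4 pair and in cone cells, and are also used in antenna, wing and trachea. klu (klumpfuss) encodes a zinc-finger repressor of the EGR type that acts in neuroblasts and bristle precursors, and in R7 cells it represses spineless (ss).

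Values are the deposited log2 expression values, so a difference of 1 is a 2-fold change. Tests came from a linear model with 4 group means fitted with limma to all 12 arrays. Adjusted p-values are Benjamini-Hochberg values over all 11470 probe sets tested, and a probe set was called when its adjusted p was under 0.05. A level is compared between groups for the same probe set and never between genes, because probe sets differ in brightness.

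The discs carried eye RNA in all groups. All 9 eye markers tested (ey, toy, so, eya, dac, gl, elav, chp and Optix) were above the floor, a dense band of values below about 3, and their mean per array lay between 10.99 and 11.69. Arrays of a group correlated at 0.993 to 0.998 over all probe sets and arrays of different experiments at 0.976 to 0.986. Haemocyte markers stood at array means of 7.30 to 8.40 in the Runt experiment and 3.53 to 5.29 in the sens experiment. Levels in different experiments are therefore only described side by side, by means and ranges. Correlations over all 12 arrays include differences between the experiments. The only test that spans both experiments is that of the difference between the comparisons.

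The sens comparison asks what changes in discs homozygous for the sens mutant genotype. pros, salm and salr all fell in the mutant discs, to 0.413, 0.343 and 0.379 of the control level, while klu did not pass the test. The count was 3 of 4 genes lower and 0 higher, where 5.30% of all probe sets tested were called lower and 11.6% higher, 16.9% in all. Higher calls made up 68.7% of these, and 50.1% when quantiles were normalized a second time; the 3 members were lower in both. The median difference of the 4 genes was -1.34, against 0.0306 over all probe sets. Earlier results of these arrays were known when the genes were chosen, so the count is a description.

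pros stood at 6.68, 6.63 and 7.16 in the mutant discs of replicates 1, 2 and 3. In the controls it stood at 7.98, 8.33 and 7.98. The highest mutant array lay below the lowest control array. The difference was -1.27 (SE 0.216, adjusted p = 0.00372 by limma), which is 2.42-fold lower with a 95% interval of -1.76 to -0.79 on the log2 scale. Its fall was kept in 22 of 22 alternative settings, with values from -1.44 to -1.16. Only normalization, array weights or leaving out a sens array could move the difference itself. The other settings could change only its SE and p.

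salm stood at 8.16, 8.03 and 8.23 in the mutants and at 9.49, 9.55 and 10.01 in the controls. The gap between the 2 groups was 1.26 log2 units, wider than the spread of either. The difference was -1.54 (SE 0.314, adjusted p = 0.00895 by limma), 2.92-fold lower, with an interval of -2.24 to -0.84. Of 11470 probe sets, 1.05% differed by this much or more in that direction.

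salr stood at 6.61, 6.12 and 6.66 in the mutants and at 7.79, 7.72 and 8.08 in the controls. The groups were again apart, with a gap of 1.06. The difference was -1.40 (SE 0.240, adjusted p = 0.00402 by limma), 2.64-fold lower, with an interval of -1.94 to -0.86. The size of the fall in salr was thus within the interval of that in salm, and both were called in all 22 alternative settings. As for pros, many of these settings could not move the difference itself. All 3 called genes passed a fall of at least 1 log2 unit, as did 2.20% of all probe sets.

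klu, by its brighter probe set, stood at 8.82, 8.91 and 8.89 in the mutants and at 8.97, 9.41 and 9.64 in the controls. The mutant arrays lay close together just under the lowest control. The ranges did not overlap, by a gap of 0.0532, but the controls were spread widely. The difference was -0.47 (SE 0.312, adjusted p = 0.336 by limma), with an interval of -1.16 to 0.23. This interval holds both no change and a fall of over 1 log2 unit. Mutant arrays all below the controls were seen for all 4 genes and for 14.4% of all probe sets, and all above them for 23.5%.

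The second probe set of klu lay in the floor on every array, between 2.59 and 2.96. It stood at 2.59 to 2.60 in the mutants and at 2.96, 2.64 and 2.62 in the controls. Only control replicate 1 was raised. Its difference was -0.15 (SE 0.0736, adjusted p = 0.203), and values at this level are compressed.

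**Figure D1:**
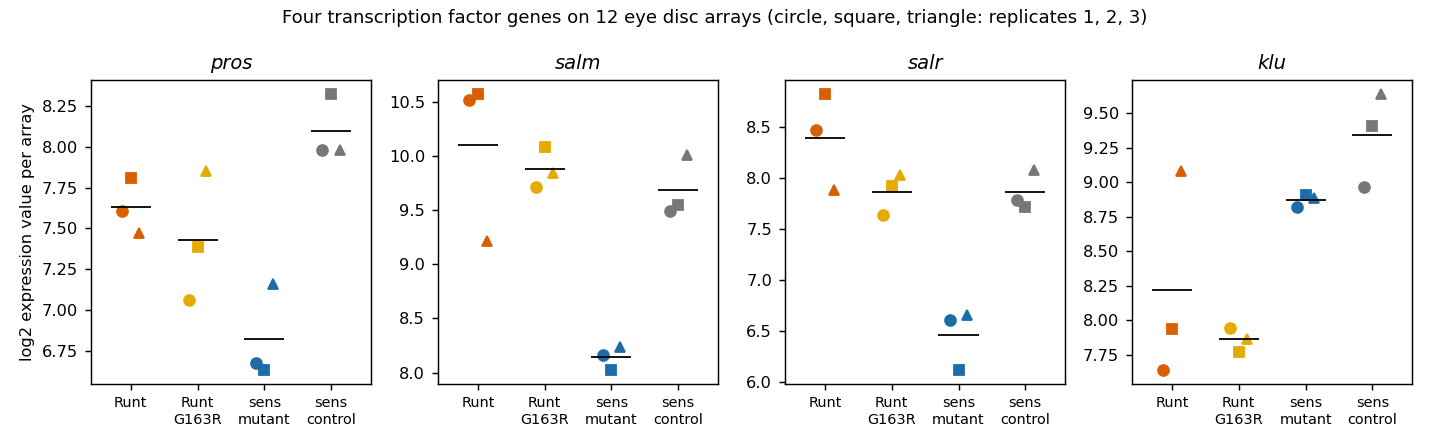
Log2 expression value (vertical axis, a separate scale for each gene) of pros, salm, salr and the brighter probe set of klu in the 4 groups. Circles, squares and triangles are replicates 1, 2 and 3, and bars are group means; for pros, salm and salr the mutant arrays lie below all control arrays, and Runt replicate 3 lies apart from replicates 1 and 2 for salm and klu.

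The Runt comparison sets discs with the unaltered Runt transgene against discs with the G163R form. None of the 4 genes was called, and none had an unadjusted p under 0.05 in the limma fit. Calls made up 0.0436% of all probe sets (0.0349% higher and 0.00872% lower), and 6.36% had an unadjusted p under 0.05. The ranges of the 2 groups overlapped for all 4 genes, while 4.70% of all probe sets had every Runt array above the others and 4.74% every Runt array below. A change common to both forms of Runt would not be seen here.

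pros stood at 7.61, 7.81 and 7.47 in Runt discs and at 7.06, 7.38 and 7.85 in Runt G163R discs. The Runt arrays fell inside the spread of the others. The difference was 0.20 (SE 0.216, adjusted p = 1.00 by limma), with an interval of -0.28 to 0.68.

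salm stood at 10.52, 10.57 and 9.21 in Runt discs and at 9.71, 10.08 and 9.84 in Runt G163R discs. Replicates 1 and 2 were above every Runt G163R array and replicate 3 was below every one. The difference was 0.22 (SE 0.314, adjusted p = 1.00 by limma), with an interval of -0.48 to 0.92. It was -0.012 without Runt replicate 2, and without Runt replicate 3 it was 0.67 (SE 0.161, unadjusted p = 0.00250, adjusted p = 0.149 by limma).

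salr stood at 8.47, 8.83 and 7.88 in Runt discs and at 7.65, 7.92 and 8.04 in Runt G163R discs. Replicates 1 and 2 again lay above all Runt G163R arrays, and replicate 3 lay among them. The difference was 0.53 (SE 0.240, adjusted p = 0.789 by limma), with an interval of -0.0070 to 1.06. It was 0.78 without Runt replicate 3 (SE 0.207, unadjusted p = 0.00431, adjusted p = 0.219 by limma). With array weights in limma, which give less weight to arrays far from their group, salr rose by 0.73 (SE 0.167, adjusted p = 0.0443). That was the only setting of 22 in which a member was called in this comparison.

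klu moved the other way on Runt replicate 3. Its brighter probe set stood at 7.64, 7.93 and 9.08 in Runt discs and at 7.95, 7.77 and 7.87 in Runt G163R discs. The first 2 Runt arrays lay near the Runt G163R arrays, and replicate 3 was over 1 log2 unit higher. The difference was 0.36 (SE 0.312, adjusted p = 1.00 by limma), with an interval of -0.34 to 1.05, and -0.075 (SE 0.176) without that array. The floor probe set of klu differed by 0.015 (SE 0.0736, adjusted p = 1.00). With Runt replicate 3 left out, 1.04% of all probe sets were called, 0.549% as higher, and again none of the 4 genes.

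**Figure D2:**
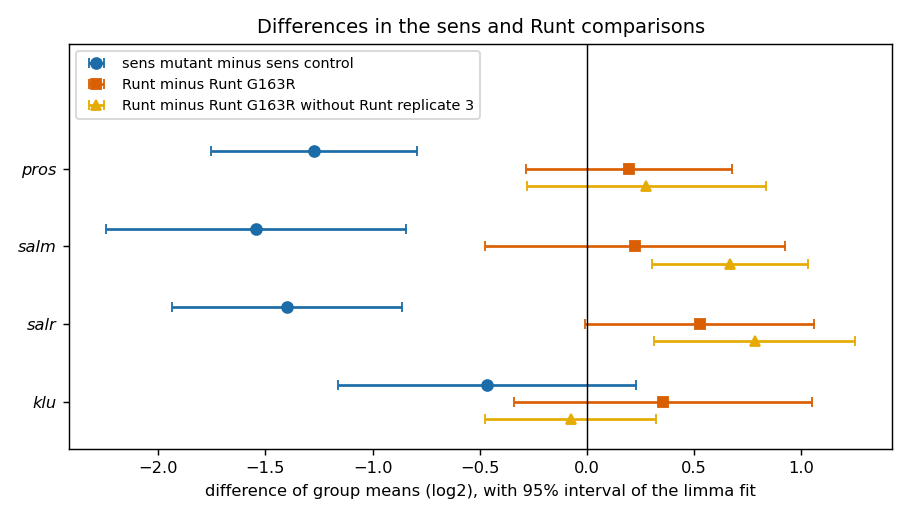
Difference of group means on the log2 scale (horizontal axis) with its 95% interval from the limma fit, for pros, salm, salr and the brighter probe set of klu. Circles show sens mutant minus control, squares Runt minus Runt G163R, and triangles the latter without Runt replicate 3; the intervals of pros, salm and salr in the sens comparison lie wholly below 0.

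The difference between the comparisons was tested itself. The sens difference minus the Runt difference was -1.47 for pros (SE 0.305, adjusted p = 0.0162 by limma). For salr it was -1.93 (SE 0.339, adjusted p = 0.00813). For salm it was -1.77 (SE 0.444, adjusted p = 0.0344), but this call was lost in 12 of 20 alternative settings, with adjusted p-values up to 0.0783. The call of pros was lost in 1 of 20, the fit with the replicate number as a block (adjusted p = 0.0595), and that of salr in none of the 20. For klu the value was -0.82 (SE 0.441, adjusted p = 0.272). Of all probe sets, 3.35% were called lower and 6.74% higher in this contrast, 10.1% in all, and 26.6% had an unadjusted p under 0.05. The 2 comparisons share no arrays, but they differ in genotype and in experiment.

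Placed in order of their means, the groups differed between the genes. For pros the order was sens control (8.10 ± 0.200, SD, n = 3), Runt (7.63 ± 0.168), Runt G163R (7.43 ± 0.397) and sens mutant (6.82 ± 0.293). The controls lay above the Runt arrays without overlap, the Runt and Runt G163R ranges overlapped, and so did those of Runt G163R and the mutants. For pros, therefore, the controls stood apart above all other arrays, and the mutants were the lowest group without standing apart.

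For salm the order was Runt (10.10 ± 0.770, SD, n = 3), Runt G163R (9.88 ± 0.190), sens control (9.68 ± 0.285) and sens mutant (8.14 ± 0.106). For salr it was the same, at 8.40 ± 0.480, 7.87 ± 0.201, 7.86 ± 0.194 and 6.46 ± 0.298. Each neighbouring pair among the first 3 groups overlapped for both genes, and the mutants lay apart below them. For klu the order was sens control (9.34 ± 0.345, SD, n = 3), sens mutant (8.88 ± 0.0453), Runt (8.22 ± 0.761) and Runt G163R (7.86 ± 0.0877). The range of the mutants overlapped that of the Runt arrays through Runt replicate 3.

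salm and salr moved together from array to array. They lie side by side on chromosome arm 2L with 0 tested genes between them in the RefSeq gene order. Over the 12 arrays Pearson's r of their log2 values was 0.964, and 0.935 without the 2 arrays farthest from the median of salm. For deviations from the group means r was 0.844, and 0.684 when Runt replicate 3 was left out. The arrays of a group share their genotype, so these values describe likeness only. The genes are paralogues, and whether the probe set of either also reads transcripts of the other was not tested. pros followed less closely, with r of the deviations of 0.521 against salr and 0.270 against salm. For salm and klu r of the deviations was -0.711, and it was 0.477 without Runt replicate 3, so the opposite movement of these 2 genes rests on that array.

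**Figure D3:**
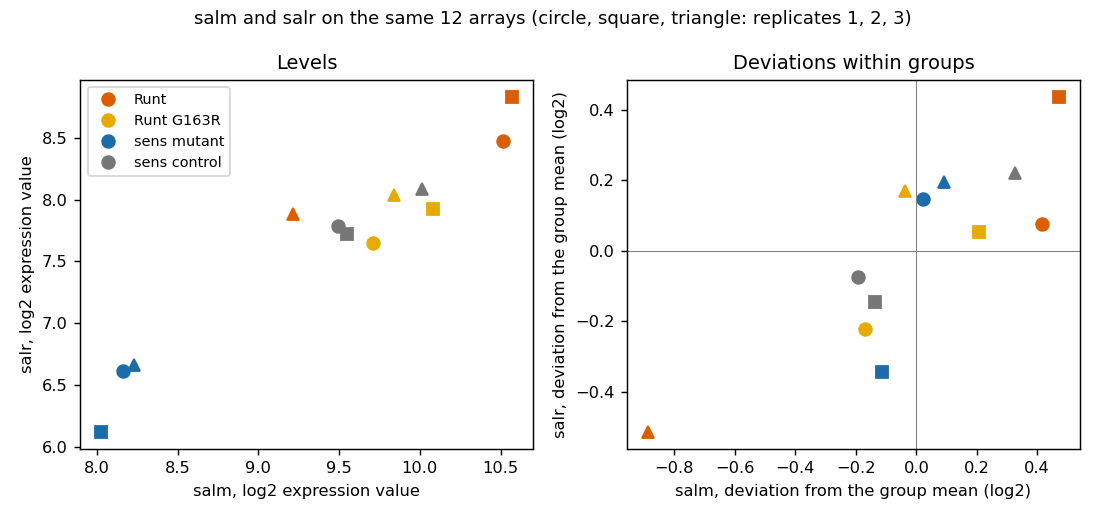
Log2 value of salr (vertical) against salm (horizontal) on the 12 arrays, as levels (left) and as deviations from the group mean (right). Colours are groups and circles, squares and triangles are replicates 1, 2 and 3; the mutant arrays form the low end at left, and Runt replicate 3 is the lowest deviation of both genes at right.

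Among 8220 other genes, those with the highest Pearson r over the 12 arrays were named for each member. For salr these were dpr5, an immunoglobulin superfamily gene (0.974), CG15097 (0.964) and CG13409 (0.962). For salm they were dpr5 (0.967), CG13409 (0.952) and boss, the gene of the R8 ligand for Sevenless (0.951). boss stood at 2.27, 2.39 and 2.59 in mutants against 6.48, 6.51 and 6.38 in controls, so the mutant arrays lay in the floor. It stood at 7.25 and 7.38 in Runt replicates 1 and 2 and at 6.17 in replicate 3, the same order as for salm. For pros the genes were Srpk79D, a kinase gene (0.966), CanB, a calcineurin regulatory subunit gene (0.942), and X11Lbeta (0.936). Srpk79D fell by 1.56 in the mutants (SE 0.222, adjusted p = 0.00156 by limma). For klu they were CG13917 (0.981), poe (0.963) and the flotillin gene Flo1 (0.957). None of these 3 was called in the sens comparison, with differences of -0.43, -0.15 and -0.16.

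The genes that specify R7 and R8 upstream of or beside the 4 factors were taken from a list of 18, of which 13 had a probe set with 1 gene and all 13 were tested. In the sens comparison 4 were called lower and 1 higher, where 5.30% of all probe sets were called lower and 11.6% higher. An unadjusted p under 0.05 was seen for 6 of the 13 and for 30.9% of all probe sets. The median difference was -0.11, against 0.07 over all named genes tested. boss fell by 4.04 (SE 0.281, adjusted p = 2.42e-05 by limma), a size that is approximate because the mutants lie in the floor. sev, the Sevenless receptor gene, fell by 1.07 (adjusted p = 0.0174), and phyl, whose product with Sina removes the repressor Tramtrack in R7, fell by 0.50 (adjusted p = 0.00285). nvy, a cofactor gene of the ETO family, fell by 1.45 (adjusted p = 0.00301), from 9.21, 9.25 and 9.20 in controls to 7.88, 7.16 and 8.25 in mutants.

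sens itself was the member of that list that rose, by 1.29 (adjusted p = 0.00112 by limma). The effect of these alleles on the transcript is not given in the labels, and the level is therefore no check of the genotype. sina (-0.11), aop (-0.0033), lz (0.45), svp (-0.20), ro (0.67), ato (0.11), Nf-YC (-0.16) and seq (0.33) did not pass the test. In the Runt comparison 0 of the 13 were called by limma, as were 0.0436% of all probe sets. An unadjusted p under 0.05 was seen for 4 of the 13 and for 6.36% of all probe sets. Without Runt replicate 3 boss rose by 1.02 (adjusted p = 0.0225) and ro fell by 1.28 (adjusted p = 0.0205), and no other gene of the 4 lists described here was called.

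Genes that act with or after these factors in choosing photoreceptor subtypes were tested for 8 of 15 listed, and the rhodopsin genes were not analysed here. In the sens comparison 1 of the 8 was called lower and 0 higher, where 5.30% of all probe sets were called lower and 11.6% higher. tgo, the bHLH-PAS partner gene of ss, fell by 0.25 (SE 0.0669, adjusted p = 0.0312 by limma) in the sens comparison, a call lost with no filter, with array medians subtracted, on the 6 arrays alone, and without sens mutant replicate 1 or 2 or control replicate 3. ss, the gene repressed by Klu in R7, differed by -0.57 (adjusted p = 0.381). oc (-0.08), dve (0.15), Pph13 (-0.23), wts (-0.10), melt (0.021) and mirr (-0.026) did not pass the test. The median was -0.09. In the Runt comparison 0 of 8 were called by limma and 1 had an unadjusted p under 0.05, as had 6.36% of all probe sets.

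Genes that work with the Spalt factors in other discs were measured for 8 of 10 listed, and all 8 were tested. In the sens comparison 1 was called lower and 0 higher, where 5.30% of all probe sets were called lower and 11.6% higher. knrl, a nuclear receptor gene that Spalt and Dpp signalling pattern in the wing together with kni, fell by 1.10 in the mutants (adjusted p = 0.0387 by limma), a call lost with no filter, on the 6 arrays alone, with the replicate block and without 1 array in 8 of 12 fits. kni (-0.017), the ligand gene dpp (0.06), its receptor gene tkv (-0.0039), Mad (-0.024), bi (-0.06), ara (0.021) and caup (-0.04) did not pass the test. The median was -0.020. In the Runt comparison 0 of 8 were called by limma, and 1 had an unadjusted p under 0.05, as had 6.36% of all probe sets.

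klu also acts in bristle lineages. Of 9 sensory organ precursor genes, 8 had a probe set and 6 passed the filter. In the sens mutants 3 of the 6 fell and 0 rose, where 5.30% of all probe sets were called lower, and the median difference was -0.42 against 0.07 over all named genes tested. ase fell by 1.27 (adjusted p = 0.000423 by limma), cpo by 0.82 (adjusted p = 0.0106) and phyl, also in the first list, by 0.50. ac (0.24), sc (0.33) and neur (-0.34) did not pass the test. cato lay in the floor on all arrays and amos on 11 of 12. In the Runt comparison 0 of 6 were called by limma, and 1 had an unadjusted p under 0.05, as had 6.36% of all probe sets.

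All of these 4 factors are also used outside photoreceptors, and markers of other tissues moved in the sens comparison. Of 17 brain and neuroblast markers 16 were tested, 5 fell (Ddc, mira, insc, ase and wor) and 1, pon, rose, where 5.30% of all probe sets were called lower and 11.6% higher. Of those that fell, ase was also in the sensory organ precursor list, and wor lay in the floor on 7 of 12 arrays. The mean of this list per array was 7.24 to 7.47 in controls, 6.76 to 6.84 in mutants, 6.63 to 6.79 in Runt and 6.54 to 6.65 in Runt G163R. hb and cas lay in the floor on all arrays and Kr on 11. mira, whose product carries Prospero in dividing neuroblasts, stood at 7.54, 7.89 and 7.71 in controls, and at 6.42, 6.58 and 6.22 in mutants. In Runt discs mira stood at 6.68, 6.67 and 6.78, and in Runt G163R discs at 6.38, 6.70 and 6.22. Those discs differ from the sens groups in genotype and in experiment. The part of brain tissue in the fall of pros was not tested.

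Of 12 antennal and leg markers all were tested, 4 fell (Dll, al, ap and disco) and 0 rose, where 5.30% of all probe sets were called lower and 11.6% higher. The other 8 did not pass the test. Of these, B-H2 (0.55), B-H1 (0.45), dan (0.31) and danr (0.07) were higher in the mutants. ss (-0.57), Lim1 (-0.45), bab2 (-0.32) and bab1 (-0.048) were lower. The array means of this list were 7.77 to 8.18 (controls), 7.41 to 7.76 (mutants), 7.12 to 7.52 (Runt) and 7.20 to 7.47 (Runt G163R). No marker lay in the floor on every array, but ap did on 9 of 12 and bab1 on 10. Dll, the selector gene of antenna and leg, stood at 8.44, 8.84 and 8.51 in controls and at 6.78, 6.64 and 6.83 in mutants. In Runt discs Dll stood at 4.92, 4.61 and 5.97, and in Runt G163R discs at 5.33, 5.42 and 5.24. Both differ from the sens groups in genotype and in experiment. Among the Runt arrays, Dll, al, Lim1, ss, bab2, disco and B-H1 were highest on replicate 3. On that array ap, dan, danr and B-H2 were lowest, and bab1 lay between the other Runt arrays. The part of antennal tissue in the falls of salm and salr was not tested.

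Cone cells, which also use pros and the Spalt genes, had 3 markers. ct differed by -0.19 and lz by 0.45 in the sens comparison, and neither passed the test, while sv lay in the floor on all arrays. The mean of the 3 was 6.60 to 6.88 in controls and 6.78 to 6.94 in mutants. Of 9 eye markers 1 was called lower and 3 higher, where 5.30% of all probe sets were called lower and 11.6% higher. The lower one was gl, a zinc-finger gene needed for all photoreceptors, which fell by 0.47 (adjusted p = 0.0127 by limma). ey, toy and Optix rose, by 0.50, 0.36 and 0.89, and elav (-0.27) and chp (0.04) did not pass the test. Of 7 glial markers tested, moody and wrapper rose and 0 fell, to be read against the same shares. Of 3 fat body markers none was called, but their mean ranged from 3.77 to 11.35 among control arrays and from 3.50 to 9.97 among mutant arrays. Of 6 muscle markers only 2, htl and twi, had a probe set with 1 gene, and twi lay in the floor on all arrays. Their mean was 4.23 to 4.43 on all arrays, and it describes neither gene.

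**Figure D4:**
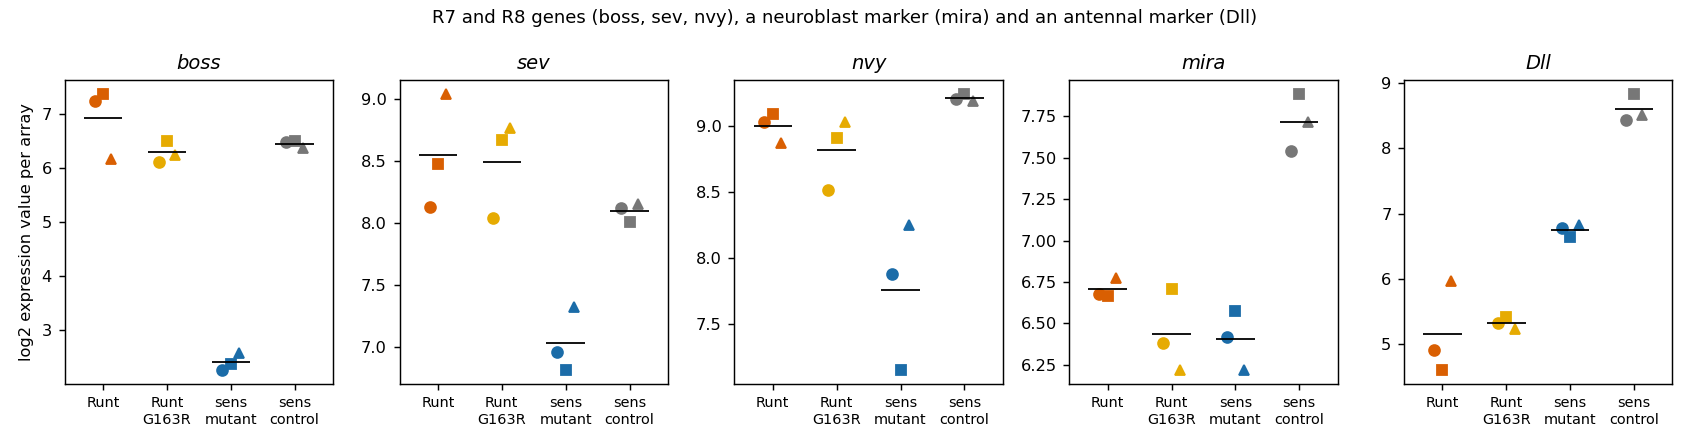
Log2 expression value per array (vertical axis, a separate scale for each gene) of boss, sev, nvy, mira and Dll in the 4 groups. Circles, squares and triangles are replicates 1, 2 and 3 and bars are group means. The means of boss, sev, nvy and mira are lowest in the sens mutants. For mira the mutant arrays overlap the Runt G163R arrays. The means of nvy, mira and Dll are highest in the sens controls.

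pros lies on 3R, klu on 3L and the Spalt genes on 2L. The 10 nearest tested genes on either side of each were also read in the sens comparison. Around pros 0 of 20 were called lower and 5 higher, where 5.30% of all probe sets were called lower and 11.6% higher. The largest rise was that of CG17734, by 1.19 (SE 0.0592, adjusted p = 1.72e-06 by limma). The lowest neighbour of pros, lncRNA:CR31386, differed by -0.22 and was not called, so pros was the only gene called lower in this stretch of tested genes.

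Around the Spalt genes 3 of 20 fell and 2 rose, where 5.30% of all probe sets were called lower and 11.6% higher. The differences of those that fell were -2.23 for the guanylyl cyclase gene Gyc32E, -0.61 for kek2 and -0.53 for CG31705. The nearest called genes on either side, Ppt2 and Cog8, rose by 1.03 and 0.92, against the falls of salm and salr. Around klu 1 of 20, tna, was lower (-0.36) and 1, galla-2, higher (0.38), to be read against the same shares. In the Runt comparison limma called none of these neighbours, with Gyc32E at 1.58, and 0.0436% of all probe sets.

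**Figure D5:**
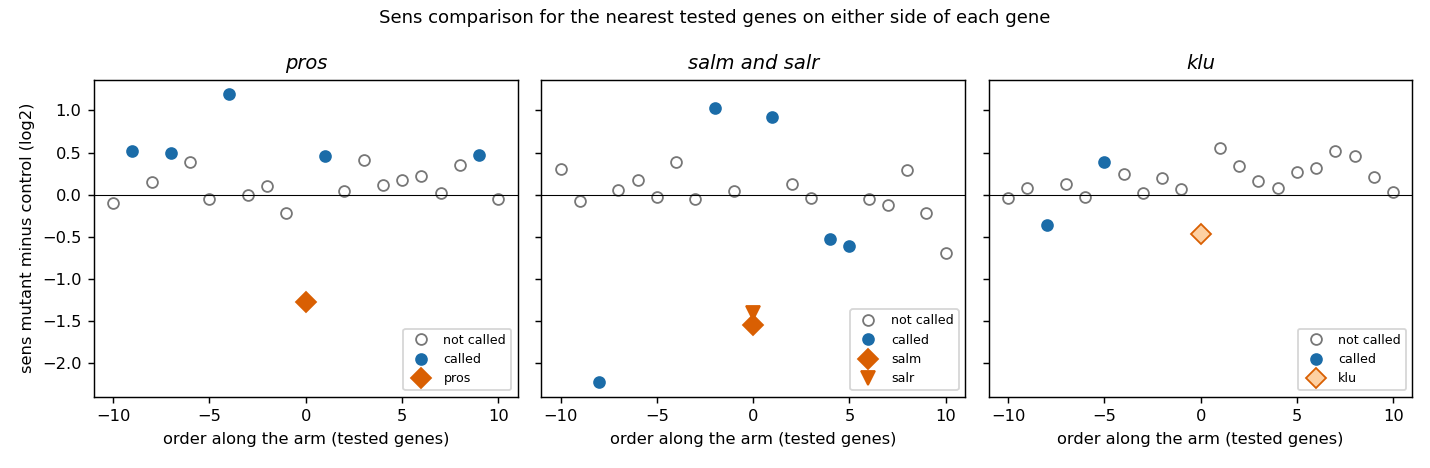
Difference between sens mutant and control discs (log2, vertical axis) for the 10 nearest tested genes on either side of pros, of salm and salr, and of klu, in their order along the arm (horizontal axis, the named genes at 0). Orange diamonds and the triangle are the named genes, pale where not called; blue points were called by limma and open circles were not. pros lies below all of its neighbours, and salm and salr below all of theirs but Gyc32E.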

How the data were processed

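The deposited table holds 1 log2 expression value per probe set and array. That the authors' values are log2 was judged from their range of 1.63 to 15.4. MAS5, GCRMA and affy are named per the submitters' processing notes, with no role or version; how background and normalization were handled is not given in these sources. Array medians were 2.59 to 2.67, and differences near this floor are compressed.

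Of 18952 probe sets, 183 controls were left out. Genes were named through the platform annotation and RefSeq gene identifiers (Release 6 plus ISO1 MT), which were matched for 13544 of 13647 probe sets with 1 gene; RefSeq was used for names, arms and gene order only. A gene stands by its probe set with the highest mean. limma 3.58.1 in R 4.3.3 fitted 4 group means to 11470 probe sets (lmFit, eBayes with an intensity trend, two-sided tests), and the model was tested on simulated data. Contrasts were Runt over Runt G163R, sens mutant over its control, and the second less the first. SE and 95% intervals are those of the moderated fit. The number of arrays limits the precision.

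Members and lists were chosen with earlier results of these data known. Named were the members, the list genes that were called or had the smallest p, and for each member the 3 genes with the highest Pearson r. Neighbours and the remaining list genes were added to these after values were seen. Alternatives changed the filter, normalization, variance model, array weights, arrays fitted or handling of klu's probe sets, added the replicate block, or left out 1 array.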

Additional observations from a re-analysis of the deposited data

How the results depend on the processing

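The falls of pros, salm and salr in the sens comparison kept their direction and call in all 22 alternatives, with values from -1.44 to -1.16, -1.64 to -1.38 and -1.53 to -1.23, and klu stayed uncalled at -0.65 to -0.31. For pros, salm and salr, only normalization, array weights or leaving out a sens array could move the difference. The other alternatives could change only its SE and p. In the Runt comparison salm was -0.012 without Runt replicate 2 and klu -0.075 without Runt replicate 3, the 2 reversals; leaving out 1 array each gave -0.012 to 0.67 for salm, 0.31 to 0.78 for salr, 0.014 to 0.41 for pros and -0.075 to 0.65 for klu. With array weights salr was called at 0.73. For the difference of the contrasts, the call of salm was lost with no filter (-1.77, adjusted p = 0.0592), with the replicate block (-1.77, adjusted p = 0.0526) and in 10 of 12 fits without 1 array (-2.21 to -1.53 over the 12), and that of pros with the replicate block (-1.47). The cause was not tested.

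Calls over all probe sets in the Runt comparison were 5, against 0 with the 60th percentile filter, 466 with array weights, 1 on the 6 arrays alone and 1 with the replicate block, and 4 to 119 without 1 array, the most without Runt replicate 3. In the sens comparison they were 1940, and 1220 to 2009 without 1 array, the fewest without sens mutant replicate 1. The share of higher calls there was 68.7%, 50.1% when quantiles were normalized again and 77.3% with array medians subtracted. The count of lower R7 and R8 genes stayed at 3 to 4, and that of sensory organ precursor genes at 3, without any 1 array. The 1 lower subtype gene, tgo, became 0 with no filter, with median subtraction and on the 6 arrays alone, and 0 to 1 without 1 array. The 1 lower Spalt circuit gene, knrl, became 0 with no filter, on the 6 arrays alone and with the replicate block, and 0 to 1 without 1 array, with 0 in 8 of 12.

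Replicate numbers are shared by the groups. Deviations of same-numbered arrays correlated at 0.256, -0.121 and 0.0646 for Runt and Runt G163R, and at -0.420, -0.0674 and 0.0756 for sens mutant and control, so the numbers were not taken as pairs.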
